A study of Salix linearistipularis with 24 samples.

Results

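*SlActin* is the gene that qPCR of *NHX* genes in *S. linearistipularis* was normalised to. It is cluster CL19537 of the transcriptome assembly, and its members were chosen by name, as all rows of the deposited table whose identifier is CL19537 followed by a contig number. There were 41 such contigs (numbered 1 to 42, with no contig 19) among 253209 rows, which form 139844 genes when the contigs of each cluster are added up. A contig is a stretch of transcript sequence assembled from overlapping reads, and the contigs of 1 cluster can be alleles, splice forms or paralogues. That CL19537 encodes actin was taken from the study's methods, since the table has no names, and the label of root tissue could not be checked against marker genes for the same reason.

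*S. linearistipularis* is a dioecious willow of saline-alkali soil, and its root RNA was sequenced as 24 libraries in 8 groups of 3. Hydroponic female cuttings were kept in 100 mM NaCl for 6, 12, or 24 h or in water as the control, and male cuttings had the same 4 conditions. The labels describe 1 female and 1 male individual propagated to cuttings, whereas the methods describe trees of several populations and 3 independent experiments. If each sex was 1 plant, sex and plant cannot be told apart. The sources used here do not give the hour of harvest of the controls, so hours in culture and NaCl cannot be told apart.

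Actin is a globular protein that polymerises into filaments. In root cells these filaments carry organelles and vesicles, and they guide the tip growth of root hairs and the expansion of the elongation zone. Plants have several actin genes, some active in vegetative tissue and others in pollen, with closely similar coding sequences. Because most cells need actin, its genes are widely used as internal references, to which the signal of other genes is divided on the assumption that the reference itself is steady.

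Levels are given in FPKM (fragments per kilobase of transcript, in proportion to the mapped fragments of a library) as deposited, and the level of *SlActin* is the sum over its contigs. The FPKM of all rows summed to between 663314 and 778064 per library. The table gives no read numbers, so the depth behind each value is unknown. Because the methods name independent experiments and the labels 1 individual of each sex, whether the libraries of a group are separate plants is not settled, and p-values reflect the spread among these libraries. The male 6 h libraries stood far apart from each other. Log2 ratios are on the scale of log2(FPKM + 0.5), which understates changes of low contigs, and were tested with limma over all genes or rows. A gene or contig was called where the log2 ratio was at least 1 in size and its adjusted p (Benjamini-Hochberg) no more than 0.05.

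In female roots *SlActin* was lower at each time in NaCl than in the control. The sum was 336, 369.9 and 377 FPKM in the female control libraries, 143, 139 and 141 FPKM at 6 h, 57.1, 56.5 and 54.5 FPKM at 12 h, and 15.9, 16.5 and 15.6 FPKM at 24 h. No library of a group overlapped any library of the other female groups. The group means were 361 ± 22.01, 141 ± 2.02, 56.0 ± 1.32, and 16.0 ± 0.436 FPKM (SD, n = 3 each). Against the control, the log2 ratio was -1.35 ± 0.371 at 6 h (SE, adjusted p = 0.00371), -2.67 ± 0.371 at 12 h (adjusted p = 7.68e-06), and -4.45 ± 0.371 at 24 h (adjusted p = 4.17e-09). The 24 h mean was 4.44% of the control mean, which is 22.5 times higher. Of all genes tested, 20.9% were called lower at 6 h, 12.7% at 12 h, and 22.6% at 24 h. In roots, fewer cells of a type and less RNA per cell cannot be told apart.

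In male roots the sum was 40.4, 37.6 and 61.1 FPKM in the control libraries, 14.4, 23.5 and 87.3 FPKM at 6 h, 56.1, 56.9 and 59.3 FPKM at 12 h, and 10.3, 9.72 and 10.1 FPKM at 24 h. The 24 h libraries lay below all other male libraries, and the 12 h libraries lay between control replicates 1 and 3. Replicate 3 was the high library of the control, and the male 6 h libraries spanned the whole range of the other male groups except 24 h. The group means were 46.4 ± 12.8, 41.7 ± 39.8, 57.4 ± 1.67, and 10.05 ± 0.295 FPKM (SD, n = 3 each). *SlActin* was lower at 24 h (log2 ratio -2.12 ± 0.371, adjusted p = 6.73e-05), where 27.8% of all genes were called lower. It passed no test at 6 h, with a log2 ratio of -0.54 and a 95% interval of -1.32 to 0.24, nor at 12 h, with 0.34 and an interval of -0.44 to 1.12. The first interval includes a log2 ratio of -1 and the second a ratio of 1. The 6 h result depended on single libraries, with a ratio of -1.28 (adjusted p = 5.15e-06, called) without male 6 h replicate 3 and 0.0027 (not called) without replicate 1. The coefficient of variation was 95.3% in male 6 h and 27.6% in the male control, against 1.43% to 6.10% in the other 6 groups, and the fit pools this spread over the groups. The SE of 0.371 therefore overstates the spread of the other groups and understates that of male 6 h. Without the male 6 h libraries (chosen after seeing the data) the SE was 0.111, and the calls of the remaining comparisons did not change.

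The 24 h call in male roots depended on the scaling between libraries. Scaled by the median of ratios over the genes above 0 in every library, which gave factors of 0.644 to 0.647 for male 24 h and 1.49 to 1.51 for the male control, the ratio was -0.93 at 24 h (adjusted p = 0.0504) and 1.16 at 12 h (adjusted p = 0.0115). All 3 female calls held with this scaling, with ratios of -1.30, -2.53, and -3.94.

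**Figure D1:**
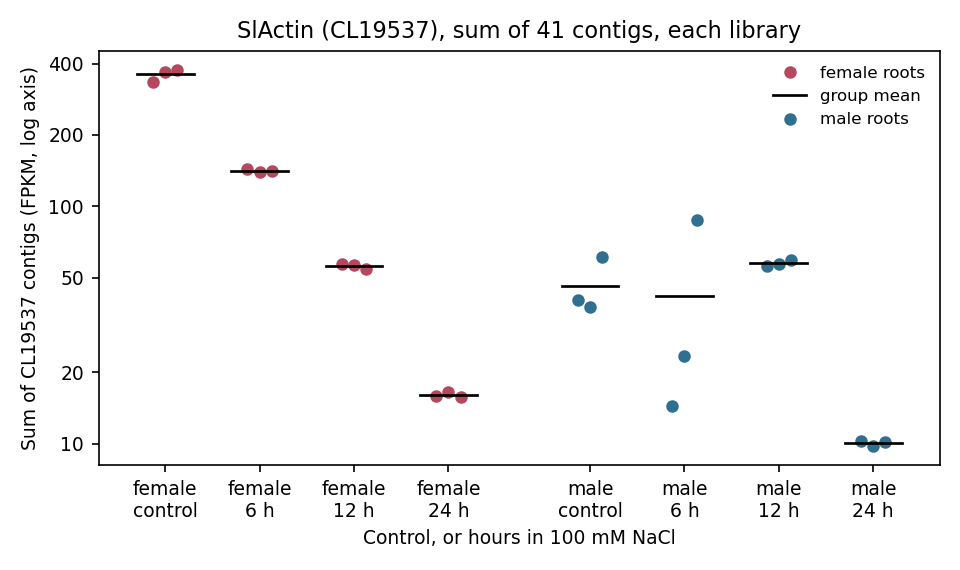
Sum of the 41 CL19537 contigs in each library, in FPKM on a log axis, by sex and condition, with points for libraries and lines for group means. Female libraries fall at each step from the control (336 to 377 FPKM) to 24 h (15.6 to 16.5 FPKM), whereas male libraries are low in the control (37.6 to 61.1 FPKM) and spread from 14.4 to 87.3 FPKM at 6 h.

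Female roots had more *SlActin* than male roots in the control and at 6 h. In the control the group means differed 7.78-fold (361 ± 22.01 FPKM in female and 46.4 ± 12.8 FPKM in male roots), with a log2 ratio of 2.98 ± 0.371 (adjusted p = 1.26e-06). Of all genes, 22.4% were called higher in female than in male control roots. At 6 h the log2 ratio was 2.17 (adjusted p = 7.12e-05), and 25.3% of all genes were called higher. Without male 6 h replicate 3 the ratio was 2.91 and without replicate 1 it was 1.63, both called. In a fit on these 2 groups alone it had an adjusted p of 0.0939. At 12 h the ratio was -0.03 with a 95% interval of -0.81 to 0.74. At 24 h it was 0.65 with an interval of -0.13 to 1.42, and neither was called. All 3 female 24 h libraries (15.6 to 16.5 FPKM) lay above all 3 male 24 h libraries (9.72 to 10.29 FPKM). The share of all genes whose libraries lie apart in this way was not taken.

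The response to NaCl differed between the sexes at 12 and 24 h. The female minus male difference of log2 ratios was -3.01 ± 0.525 at 12 h (SE, adjusted p = 7.89e-05) and -2.33 ± 0.525 at 24 h (adjusted p = 0.00133), where 27.6% and 17.8% of all genes were called lower. At 6 h it was -0.81, with a 95% interval of -1.91 to 0.29, and was not called, whereas it was -1.35 and called without male 6 h replicate 1 and -0.071 without replicate 3. The level of the sexes differed most in the control, whereas the 12 h groups of both sexes had 54.6 to 59.3 FPKM.

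**Figure D2:**
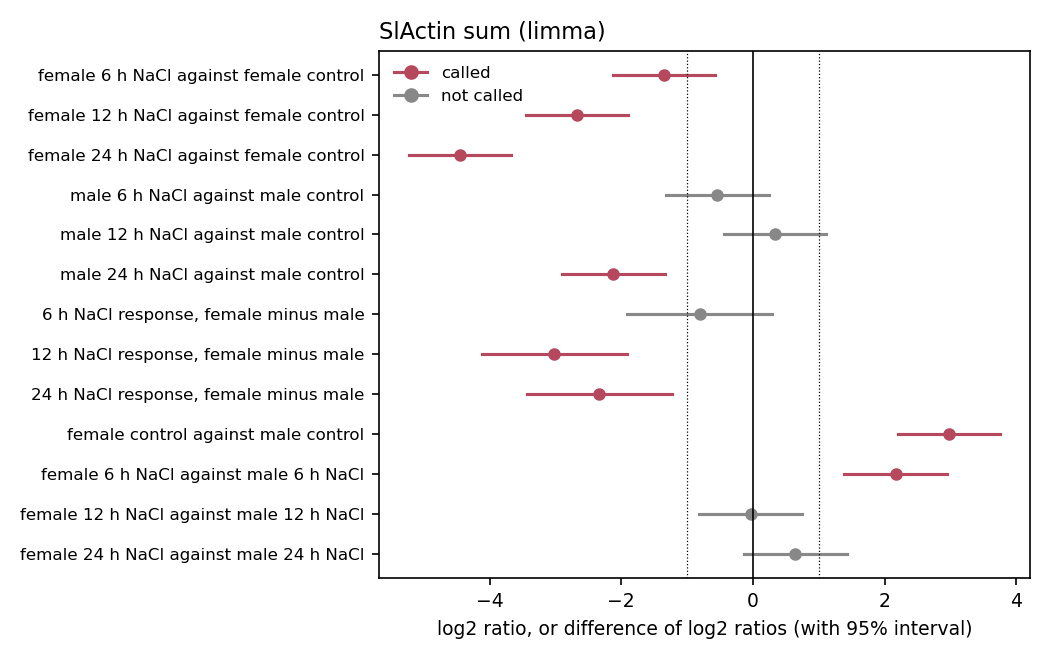
Log2 ratios of the *SlActin* sum in the 13 comparisons, with 95% intervals from limma and dotted lines at 1 and -1. Called comparisons are coloured and range from -4.45 (female 24 h against female control) to 2.98 (female against male control), and the intervals of the uncalled ones cross 0.

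In order of group means, female control came first, then female 6 h, male 12 h, female 12 h, male control, male 6 h, female 24 h, and male 24 h. Only the first 2 steps and the last were free of overlap between the libraries of neighbouring groups. The highest group mean was 35.9 times the lowest. By level, *SlActin* ranked 166th of 139844 genes in female control roots and 7692nd in male roots at 24 h. Over the 24 libraries its log2 level had an SD of 1.61, against a median of 0.90 over the 10680 genes with a mean of at least 10 FPKM, and 78.7% of these genes had a lower SD. The group means spanned 5.10 on the log2 scale, against a median of 2.74, and 81.6% of genes had a narrower span. With scaling by the median of ratios 72.8% had a lower SD and 73.1% a narrower span.

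The contigs that made up the sum changed with sex and time. In female control roots 31 or 32 contigs per library had at least 1 FPKM, against 18 at 6 h, 14 to 16 at 12 h, and 5 or 6 at 24 h. In male roots the numbers were 11 to 13 in the control, 7 to 13 at 6 h, 9 or 10 at 12 h, and 4 at 24 h. By group mean, 26 contigs were highest in female control roots, 5 in female roots at 6 h and 1 at 12 h, 4 in male control roots, 2 in male roots at 6 h and 3 at 12 h, and none in either 24 h group. No contig had a group mean of at least 1 FPKM in all 8 groups. Contigs 4, 5, 9, 28, and 42 were listed at 0 in all 12 male libraries, and no contig was listed at 0 in all female libraries. The shares of all rows with these patterns were not taken, so these counts only describe the contigs and do not set them apart from other rows. Where contigs share sequence, the authors' quantification could have divided reads between them, so levels of single contigs are less certain than their sum.

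Of the 41 contigs, 37 had at least 1 FPKM in at least 3 libraries and were tested, and most of them passed this filter through the group in which they were highest. Contigs 1, 4, 5, 9, 12, 26, 28, 31, 32, and 39 reached 1 FPKM in the female control alone and were tested only because they were high there. The counts of lower contigs and the medians in female roots are therefore not independent of the filter, also where shares of all rows stand beside them. Female roots had 22 contigs lower and 7 higher at 6 h, 23 lower and 2 higher at 12 h, and 28 lower and none higher at 24 h (none also at an unadjusted p of 0.05 in limma). Over all 181249 rows tested, 21.9%, 9.31%, and 18.2% were lower at the 3 times and 27.8%, 9.24%, and 9.84% higher. In male roots 7 contigs were lower and 4 higher at 6 h, 8 lower and 6 higher at 12 h, and 10 lower and 1 higher at 24 h, where 18.3% and 13.3%, 27.3% and 24.2%, and 29.7% and 15.2% of all rows were called. At 12 h in male roots, scaling by the median of ratios left 5 lower and 6 higher. The median log2 ratio of the tested contigs was -1.78, -1.80, and -2.16 at 6, 12, and 24 h in female roots, against 0.10, -0.01, and -0.23 over all rows, and 0, -0.05, and -0.32 in male roots, against 0, 0, and -0.10. Lower at all 3 times were 21 contigs in female and 6 in male roots (contigs 3, 17, 21, 24, 25, and 37), and all 6 were among the 21. The 21 include all the contigs that reached 1 FPKM in the female control alone. Of all rows tested, 6.71% were lower at all 3 times in female roots, 14.9% in male roots, and 1.92% in both, and 12.9% of the rows lower at all times in male roots were so in female roots too.

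**Figure D3:**
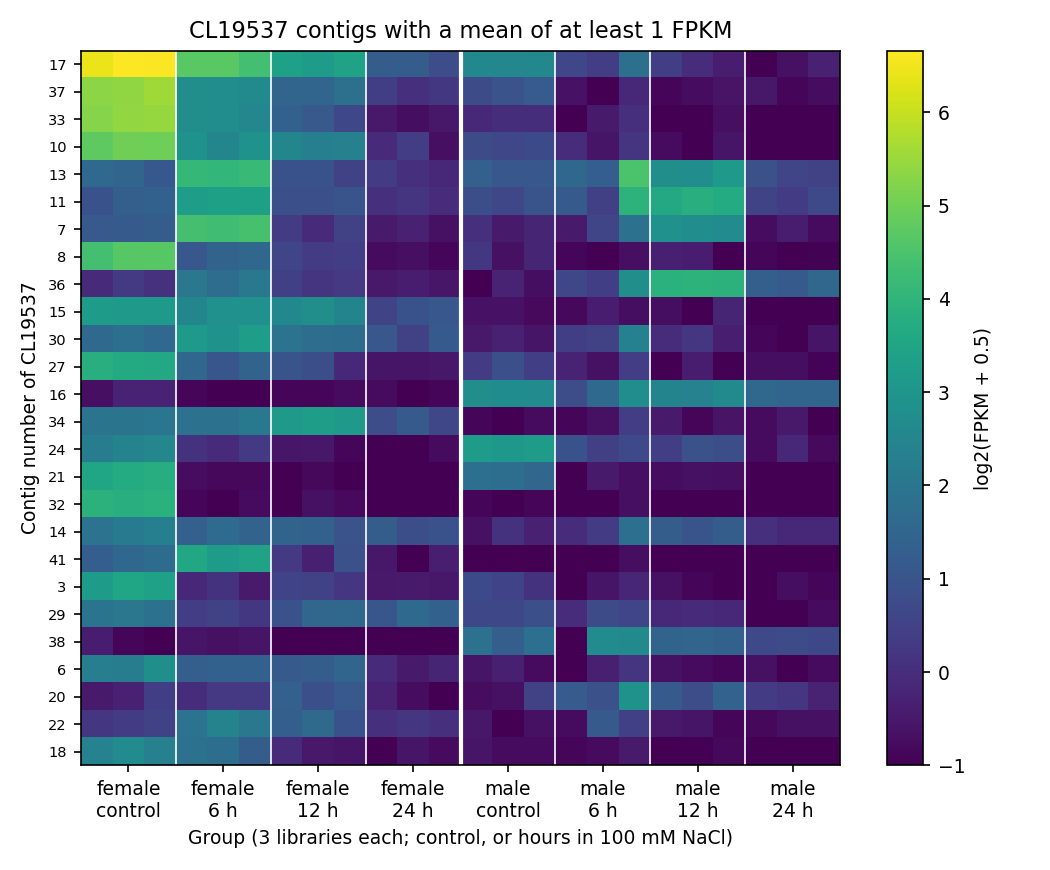
Levels of the 26 contigs of CL19537 with a mean of at least 1 FPKM, as log2(FPKM + 0.5), with 1 row per contig (highest mean at the top) and 1 column per library. Contigs 17, 37, 33, and 10 are bright in female control and fade with time, contigs 7, 11, 13, and 36 are bright in female 6 h and male 12 h, and contigs 16 and 38 exceed 1 FPKM in male libraries alone.

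Contigs 17, 37, 33, and 10 had the highest means. Contig 17 alone held 25.4% to 27.2% of the sum in female control libraries. It had 85.4, 101 and 97.2 FPKM in the female control, 25.5, 25.4 and 20.2 FPKM at 6 h, 9.96, 8.7 and 10.04 FPKM at 12 h, and 1.87, 1.89 and 1.25 FPKM at 24 h. In male roots it had 5.49, 5.37 and 5.5 FPKM in the control, 1.05, 0.8 and 3.02 FPKM at 6 h, 0.84, 0.49 and 0.25 FPKM at 12 h, and 0, 0.14 and 0.32 FPKM at 24 h. Unlike the sum, contig 17 was lower at all 3 times in both sexes, with log2 ratios of -1.98, -3.24, and -5.46 in female and -1.63, -2.58, and -3.22 in male roots (largest adjusted p = 0.000155). Its female minus male difference of responses was -0.66 at 12 h (adjusted p = 0.19) and -2.24 at 24 h.

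Contig 37 had 39.5, 41.1 and 46.5 FPKM in the female control, 6.45, 6.26 and 5.88 FPKM at 6 h, 2.35, 2.35 and 3.08 FPKM at 12 h, and 0.83, 0.53 and 0.69 FPKM at 24 h, and in male roots 0 to 0.43 FPKM in NaCl, against 1.2, 1.43 and 1.81 FPKM in the control. Contig 33 had 38.2, 42.2 and 42.7 FPKM in the female control, 6.43, 6.29 and 5.36 FPKM at 6 h, 2.11, 1.71 and 1.09 FPKM at 12 h, and 0.22, 0.11 and 0.21 FPKM at 24 h, and at most 0.52 FPKM in any male library. Contig 10 had 26.6, 31.7 and 31.1 FPKM in the female control, 7.04, 5.24 and 6.95 FPKM at 6 h, 5.16, 4.45 and 4.53 FPKM at 12 h, and 0.44, 0.8 and 0.12 FPKM at 24 h, and 1.18, 1.04 and 1.14 FPKM in the male control. These contigs fell at each female time, and contigs 37 and 10 also fell in male roots (contig 37 at all times, contig 10 at 12 and 24 h).

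Contigs 32, 21, and 3 were below 1 FPKM in every female NaCl library. Contig 32 had at most 0.14 FPKM in the NaCl and male control libraries, against 14.7, 13.8 and 14.4 FPKM in the female control. Contig 21 had 0 to 0.1 FPKM in the female and 0 to 0.23 FPKM in the male NaCl libraries, against 11.1, 12.6 and 13.2 FPKM in the female control and 2.94, 2.87 and 2.4 FPKM in the male control. Contig 3 had 0.2 to 0.94 FPKM in the female and 0 to 0.39 FPKM in the male NaCl libraries, against 8.67, 11.2 and 9.97 FPKM in the female control and 1.15, 0.94 and 0.58 FPKM in the male control. At 6 h the female log2 ratios were -4.77, -4.48, and -3.52 for contigs 32, 21, and 3. Contig 8 had 20.3, 25.1 and 25.1 FPKM in the female control, 1.63, 2.22 and 2.53 FPKM at 6 h, 1.01, 0.75 and 0.81 FPKM at 12 h, and 0.04 to 0.12 FPKM at 24 h, and 0.13 to 0.68 FPKM in the male control. Contig 27 had 13.4, 12.3 and 11.9 FPKM in the female control, 2.47, 1.57 and 2.21 FPKM at 6 h, 1.48, 1.28 and 0.42 FPKM at 12 h, and 0.18 to 0.21 FPKM at 24 h, and 0.76, 1.33 and 0.85 FPKM in the male control. Both were called lower at the 3 female times, and contig 27 also at 12 and 24 h in male roots.

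Contigs 15, 18, and 14 were not called lower in female roots at 6 h. Contig 15 had 8.93, 8.09 and 8.41 FPKM in the female control, 5.19, 6.79 and 6.84 FPKM at 6 h, 5.51, 6.33 and 5 FPKM at 12 h, and 0.97, 1.39 and 1.63 FPKM at 24 h, against at most 0.36 FPKM in male libraries. It was called lower only at 24 h (log2 ratio -2.31). Contig 6 had 4.32, 4.18 and 6.54 FPKM in the female control, 1.99, 2.12 and 2.12 FPKM at 6 h, 1.77, 1.87 and 2.31 FPKM at 12 h, and 0.46, 0.23 and 0.36 FPKM at 24 h, and at most 0.60 FPKM in male libraries. Contig 18 had 4.76, 5.93 and 4.5 FPKM in the female control, 3.09, 2.92 and 1.88 FPKM at 6 h, 0.45, 0.22 and 0.18 FPKM at 12 h, and 0 to 0.17 FPKM at 24 h, with at most 0.24 FPKM in male libraries. Contig 6 was called lower at each female time, and contig 18 at 12 and 24 h. Contig 14 had 3.26, 3.84 and 4.47 FPKM in the female control, 2.06, 2.73 and 2.19 FPKM at 6 h, 2.24, 2.08 and 1.45 FPKM at 12 h, and 1.9, 1.29 and 1.4 FPKM at 24 h, and 0.13, 0.58 and 0.31, then 0.48, 0.75 and 3.01, 1.88, 1.5 and 1.88, and 0.53, 0.43 and 0.4 FPKM in the male control and at 6, 12, and 24 h. Contig 29 had 3.36, 3.64 and 3.16 FPKM in the female control, 0.81, 0.92 and 0.68 FPKM at 6 h, 1.42, 2.39 and 2.47 FPKM at 12 h, and 1.57, 2.59 and 2.08 FPKM at 24 h. In male roots contig 29 had 1.08, 1.07 and 1.34 FPKM in the control and 0.48, 1.17 and 1.03 FPKM at 6 h, and 0 to 0.46 FPKM later. At 6 h contig 29 was called lower in female roots (log2 ratio -1.58), and at 12 and 24 h it was not (-0.61 at both times). In female roots contig 14 was called lower at 24 h alone. Contigs 14 and 29 led the female 24 h libraries, with no more than 15.7% of the sum.

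A few contigs moved the other way. At 6 h in female roots contigs 7, 11, 13, 22, 30, 36, and 41 were higher than in the control, and at 12 h in male roots contigs 7, 11, 13, 14, 20, and 36 were. Contigs 7, 11, 13, and 36 were in both lists, 57.1% of the first and 66.7% of the second. Over all rows, 34.8% of those higher in female 6 h were also higher in male 12 h, and 40% of those higher in male 12 h were so in female 6 h. Contig 7 had 20.6, 19.3 and 20.97 FPKM in female roots at 6 h, against 1.71, 1.75 and 1.87 FPKM in the control (log2 ratio 3.19 ± 0.354, SE, adjusted p = 1.58e-07), and 0.13 to 0.92 FPKM later. In male roots it had 6.89, 6.31 and 5.99 FPKM at 12 h, against 0.54, 0.24 and 0.36 FPKM in the control (log2 ratio 2.98 ± 0.354, adjusted p = 4.11e-07), with 0.24, 1.03 and 3.15 FPKM at 6 h and 0.09 to 0.27 FPKM at 24 h. The rise was therefore seen in 3 of 3 libraries of each of these groups and was over by the next time point.

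Contig 36 had 14.3, 14.9 and 14.8 FPKM in male roots at 12 h, against 0, 0.34 and 0.11 FPKM in the control, with a log2 ratio of 4.58 ± 0.391 (SE, adjusted p = 4.74e-09). It was also higher at 6 h (1.05, 0.84 and 6.4 FPKM, log2 ratio 1.94) and 24 h (2, 1.73 and 2.36 FPKM, log2 ratio 1.99), and was the contig called higher at 24 h. In female roots it had 3.64, 2.81 and 3.71 FPKM at 6 h, against 0.44, 0.72 and 0.56 FPKM in the control, and 0.19 to 0.87 FPKM later. Contig 11 had 9.23, 9.77 and 9.77 FPKM in female 6 h and 1.4, 1.97 and 2.11 FPKM in female control roots, and 11.8, 13.5 and 12.6 FPKM in male 12 h and 1.3, 1.06 and 1.47 FPKM in male control roots. Contig 13 had 16.6, 16.4 and 17.9 FPKM in female 6 h and 2.54, 2.33 and 1.67 FPKM in female control roots, and 6.33, 6.18 and 8.15 FPKM in male 12 h and 2.07, 1.63 and 1.63 FPKM in male control roots. Male 6 h replicate 3 was high for both, with 14.9 FPKM of contig 11 and 21.9 FPKM of contig 13, against at most 2.44 FPKM in the other male 6 h libraries. In the remaining groups contig 11 had 0.49 to 1.49 FPKM and contig 13 0.4 to 1.41 FPKM.

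Contigs 41, 30, and 22 rose in female roots at 6 h without a rise in male roots at 12 h. Contig 41 had 11.4, 8.71 and 10.2 FPKM at 6 h, against 1.96, 2.51 and 2.78 FPKM in the female control (log2 ratio 1.86), then 0.74, 0.3 and 1.35 FPKM at 12 h and 0 to 0.28 FPKM at 24 h, and was at 0 in 11 of 12 male libraries. Contig 30 had 8.09, 7.05 and 9.14 FPKM at 6 h, against 2.59, 2.95 and 2.54 FPKM in the control, then 3.31, 2.82 and 2.79 FPKM and 1.6, 0.92 and 1.76 FPKM, and in male roots 0.85, 0.89 and 4.63 FPKM at 6 h and at most 0.67 FPKM elsewhere. Contig 22 had 3.29, 4.84 and 3.69 FPKM at 6 h, against 0.65, 0.76 and 0.91 FPKM in the control, then 1.97, 2.61 and 1.42 FPKM and 0.53, 0.66 and 0.55 FPKM, and 0.09, 1.75 and 0.88 FPKM in male roots at 6 h. Contigs 34 and 20 were those called higher at 12 h in female roots. Contig 34 had 8.1, 9.04 and 8.12 FPKM at 12 h, against 3.36, 3.34 and 3.5 FPKM in the control, 3.19, 3.13 and 3.79 FPKM at 6 h, and 1.26, 1.73 and 1.06 FPKM at 24 h, and at most 0.82 FPKM in male libraries. Contig 20 had 2.05, 1.33 and 1.71 FPKM at 12 h, against 0.23, 0.32 and 0.84 FPKM in the control. In male roots contig 20 had 1.78, 1.35 and 7.21 FPKM at 6 h and 1.77, 1.26 and 2.16 FPKM at 12 h, against 0.1, 0.13 and 0.9 FPKM in the control. With a pseudocount of 0.1 neither contig was called at 12 h in female roots, and with 1 only 1 was.

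Contigs 7, 11, 13, and 36 together, chosen after their calls were seen, made up 1.65% to 1.83% of the sum in female control libraries, 34.6% to 37.2% at 6 h, 6.71% to 7.64% at 12 h, and 7.74% to 11.2% at 24 h. In male libraries they made up 5.85% to 9.68% in the control, 38.1%, 19.9%, and 53.1% at 6 h, 69.97% to 71.98% at 12 h, and 38.9% to 44.5% at 24 h. The other 37 contigs summed to 15.9 to 17.8 FPKM in male roots at 12 h, against 34.4 to 57.5 FPKM in the male control. In female roots at 6 h the others summed to 88.4 to 93.2 FPKM, against 329.8 to 370.9 FPKM in the control. The male 12 h sum, which was not called different from the control, held a smaller amount of the other contigs beside a larger amount of these 4. These 4 were chosen because they were called higher in female 6 h and in male 12 h roots, so their high shares in those groups follow from that choice. The sums of the others are set by the same choice, and no test is given for the 4 as a set.

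The study's lists hold 21 annotated genes whose nearest protein match lies outside the willow family, a list made after the data were seen. Of the 19 that were tested, 13 were higher and 4 lower in female roots at 6 h (29.6% and 20.9% of all genes), and in male roots at 12 h 10 were higher and 5 lower (25.4% and 24.5%). The study drew its lists from genes differentially expressed in these same libraries. That choice favours a called share above that of all genes, so the comparison with all genes cannot set these genes apart. The FPKM of the 21 summed to 344.7 to 351.7 in female roots at 6 h, against 72.7 to 80.9 in the female control, with 83.6 to 91.6 at 12 h and 49.0 to 52.3 at 24 h. In male roots they summed to 164.3 to 169.7 at 12 h, against 68.1 to 79.8 in the male control, with 72.3, 157.6, and 209.6 at 6 h and 51.0 to 53.9 at 24 h. In male 6 h replicate 2, which had 157.6 FPKM of these genes, the 4 contigs had 4.67 FPKM, against 3.27 to 3.91 FPKM in the male control. In each female control library all 21 were above 0, and elsewhere up to 8 were at 0. Whether RNA of another organism has a part in the contig levels was not tested, since no sequence of the contigs was used here.

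**Figure D4:**
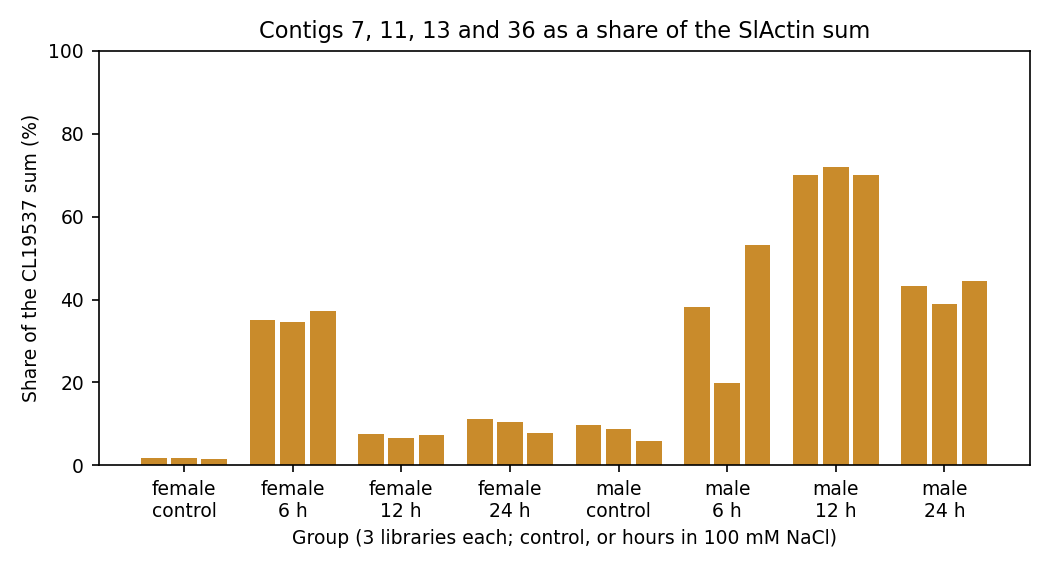
Share of the CL19537 sum, in percent, held by contigs 7, 11, 13, and 36 together in each library, with 1 bar per library. These contigs were chosen because they were called higher in female 6 h and in male 12 h roots, so high shares there follow from that choice. The share is 1.65% to 1.83% in female control, 34.6% to 37.2% in female 6 h, and 69.97% to 71.98% in male 12 h libraries, and differs between the 3 male 6 h libraries.

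A smaller number of contigs had their highest level in male roots. Contig 16 had at most 0.35 FPKM in the 12 female libraries, against 6.41, 6.14 and 5.95 FPKM in the male control, 1.27, 2.54 and 6.28 FPKM at 6 h, 4.97, 4.8 and 5.67 FPKM at 12 h, and 2.45, 2.3 and 2.34 FPKM at 24 h. In male roots it was called lower at 6 h (log2 ratio -1.01) and 24 h (log2 ratio -1.22) than in the control, but male 6 h replicate 3 lay within the control range. Contig 38 had at most 0.27 FPKM in female libraries, against 3.12, 2 and 3 FPKM in the male control, 0, 6.01 and 5.71 FPKM at 6 h, 2.27, 2.3 and 2.12 FPKM at 12 h, and 1.1, 1.18 and 1.08 FPKM at 24 h. Contig 24 had at most 0.74 FPKM in female and 1.39 FPKM in male NaCl libraries, against 4.15, 4.88 and 5.37 FPKM in the female control and 8.94, 8.05 and 8.79 FPKM in the male control. This contig led the sum in male control replicates 1 and 2, with 22.1% and 21.4%. Contigs 2 and 40 were highest in male control replicate 3. Contig 2 had 14.1 FPKM there, against 0.24 and 0.20 FPKM in the other male control libraries. Contig 40 had 6.59 FPKM there, against 0.06 and 0.22 FPKM, and also had 1.3, 1.36 and 0.93 FPKM in male roots at 12 h. Without these 2 contigs (chosen after seeing the data) the male 24 h ratio was -1.92 and the female to male ratio in the control 3.18, and no call changed.

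Between the sexes, 28 tested contigs were higher and 2 lower in female than in male control roots, where 22% and 19.4% of all rows were called. Contigs 1, 4, 5, 9, 12, 26, 28, 31, 32, and 39 reached 1 FPKM in female control libraries alone. They passed the filter only because they were high there, so the control count is not independent of the filter. At 6 h 16 contigs were higher and 3 lower in female roots (21.7% and 10.3% of all rows). The 12 h groups had 15 and 8 (27% and 24.5%), and the 24 h groups 6 and 3 (17.5% and 11.6%). Contigs 15, 17, 30, and 34 were higher in female roots in the control and at all 3 times, and contigs 16 and 38 were lower in all 4. The share of all rows called in all 4 comparisons was not taken, so these contigs are only listed. At 12 h, where the sums of the sexes did not pass the test, contigs 17, 15, and 34 had log2 ratios of 3.33, 3.25, and 3.79, and contigs 36, 16, and 11 had -3.62, -3.34, and -2.81. The responses of 21, 24, and 25 contigs were more negative in female than in male roots at 6, 12, and 24 h (19.5%, 23.8%, and 17.4% of all rows), and those of 2, 0, and 1 were more positive (28.2%, 23.4%, and 21.5%). Of the tested contigs, 4, 5, 9, and 28 were at 0 in all 12 male libraries, and contig 32 had a male control mean of 0.03 FPKM. For such contigs a fall in male roots could not be seen, so these counts partly restate levels in the controls. At 12 h the count of more positive responses was 1 at an unadjusted p of 0.05 in limma.

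The other 15 contigs had means below 1 FPKM over the 24 libraries. Of these, contigs 31 and 39 were high in the female control alone. They had at most 0.29 and 0.71 FPKM in the NaCl and male control libraries, against 6.57, 6.86 and 6.8 FPKM of contig 31 and 5.85, 6.52 and 6.09 FPKM of contig 39 in the female control. Contigs 1, 4, 5, 9, 12, 25, 26, and 28 had at most 0.50 FPKM in female NaCl libraries, against 1.08 to 4.67 FPKM in the female control. In male libraries contig 25 reached 1.76 FPKM in the control, and the other 7 had at most 0.19 FPKM. Contigs 2, 23, 35, and 42 were not tested. Contig 23 had at most 0.83 FPKM and contig 35 at most 1.15 FPKM in any library, and contig 42 had 1.9, 0.95 and 0.94 FPKM in the female control.

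The 5 *NHX* genes that were measured against *SlActin* by qPCR encode sodium/hydrogen exchangers, which move Na+ across membranes in exchange for protons. Each was divided by the *SlActin* sum of its library, which adds the change of *SlActin*, with the opposite sign, to every log2 ratio. Divided in this way, 3 of 5 were higher and none lower in female roots at 6 h, and 5 of 5 were higher at 12 h and at 24 h. Of all genes divided by *SlActin*, 60.7%, 91.2%, and 97.9% were called higher at these times, and 6.54%, 0.83%, and 0.183% lower. As deposited, 2, 1, and 0 of the 5 were higher and 1 was lower at each time, where 29.6%, 9.47%, and 9.01% of all genes were higher. Of all genes as deposited, 20.9%, 12.7%, and 22.6% were lower at these times. In male roots 1, 0, and 3 were higher and 1, 2, and 1 lower after division (20.5%, 19.6%, and 70% of all genes higher, and 4.84%, 26.5%, and 2.89% lower). As deposited none was higher (13.2%, 25.4%, and 12.1% of all genes higher), and 1, 1, and 2 were lower (17.2%, 24.5%, and 27.8% of all genes lower). The sex difference of the response was called positive after division for 3, 5, and 5 genes at 6, 12, and 24 h, and as deposited for 2, 1, and 2, where 33.7%, 75.2%, and 73.9% of all genes were called positive after division and 28.6%, 20.9%, and 18.7% as deposited. As deposited at 6 h this difference was called negative for CL9910 (-1.23), where 18.7% of all genes were called negative. Among the counts of 0, limma at an unadjusted p of 0.05 had 1 gene higher as deposited in female roots at 24 h and 1 at each time in male roots, and none higher after division in male roots at 12 h.

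CL9910 had 45.5, 44.4 and 44.7 FPKM in female roots at 24 h, against 64.8, 66.97 and 65.5 FPKM in the control. Its log2 ratio was 3.90 ± 0.324 divided by *SlActin* and -0.55 ± 0.140 as deposited (SE). CL7345 had 7.42, 8.12 and 7.38 FPKM in female roots at 24 h, against 16.8, 17.7 and 16.2 FPKM in the control, and its ratio was 3.36 ± 0.503 divided and -1.09 ± 0.199 as deposited. Both were thus called higher after division, and CL7345 was called lower as deposited. CL2217 had 20.6, 19.9 and 19.98 FPKM at 24 h, against 24.9, 25.9 and 25.4 FPKM in the control (4.12 divided, -0.33 as deposited). CL3276 had 12.9, 11.9 and 14.2 FPKM at 24 h, against 8.09, 7.7 and 8.91 FPKM in the control (5.07 divided, 0.62 as deposited). Unigene43275 had 0, 0.12 and 0.06 FPKM at 24 h and 0.06, 0.15 and 0.06 FPKM at 12 h and was at 0 in each of the female control libraries, so no fold is given. Its calls at 12 and 24 h after division come from the pseudocount and the divisor.

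In male roots CL7345 had 5.21, 4.4 and 5.37 FPKM at 24 h, against 64.2, 63.3 and 61.7 FPKM in the control, and was lower with either scale (-1.42 divided, -3.54 as deposited). CL9910 had 29.3, 30.5 and 31.3 FPKM at 24 h, against 32.05, 30.6 and 30.3 FPKM in the control (2.09 divided, -0.03 as deposited). CL2217 and CL3276 were also called higher after division at 24 h (1.72 and 2.74) and not as deposited (-0.39 and 0.62). At 12 h, where the log2 ratio of the *SlActin* sum was 0.34, division moved each ratio by -0.34. The median over all genes divided by *SlActin* was 1.49, 2.66, and 4.15 at 6, 12, and 24 h in female roots, against 0.14, -0.02, and -0.30 as deposited. It was 0.54, -0.34, and 2.04 in male roots, against 0, 0, and -0.08. Which contig the qPCR primers amplify is not known from the files used here, so these ratios describe the sequencing data and not the qPCR.

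**Figure D5:**
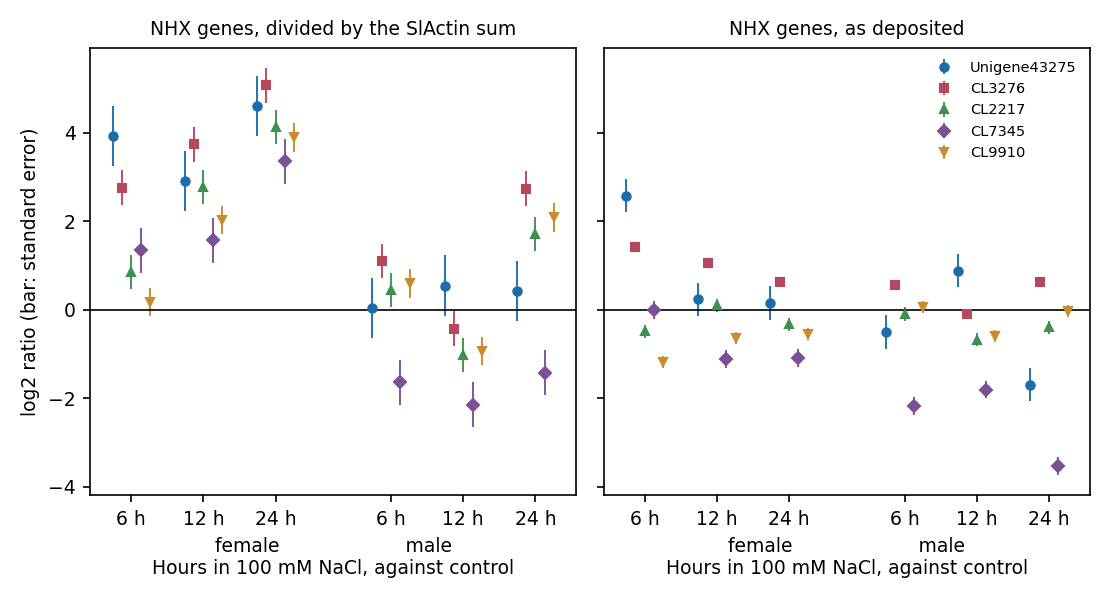
Log2 ratios of the 5 *NHX* genes, NaCl against control, at 6, 12, and 24 h in female and male roots, with standard errors, divided by the *SlActin* sum (left) and as deposited (right). At 24 h in female roots the 5 genes lie between 3.36 and 5.07 on the left and between -1.09 and 0.62 on the right. Unigene43275 was listed at 0 in the female control, so its female ratios depend on the pseudocount.

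Genes named for the cytoskeleton were few in the study's salt list, which holds a tubulin, a MAR-binding filament-like protein, and 10 annexins. Tubulin forms microtubules, and annexins bind membranes and in some cases actin in the presence of calcium. All 12 were tested, but the list was chosen by the study on these samples, and its counts are not independent evidence. After 6 h in female roots 1 was higher and 3 lower, after 12 h 1 and 1, and after 24 h 1 and 4, where 29.6%, 9.47%, and 9.01% of all genes were higher and 20.9%, 12.7%, and 22.6% lower. After 6 h in male roots none was higher (1 at an unadjusted p of 0.05 in limma) and 5 lower, after 12 h 2 and 5, and after 24 h 1 and 7, where 13.2%, 25.4%, and 12.1% of all genes were higher and 17.2%, 24.5%, and 27.8% lower. Their median log2 ratio was -0.29, -0.47, and -0.82 in female roots, against 0.14, -0.02, and -0.30 over all genes, and -0.67, -0.57, and -1.54 in male roots, against 0, 0, and -0.08. Between the controls 4 of the 12 were higher in female than in male roots, as *SlActin* was, and 2 were lower (22.4% and 15.7% of all genes). Unigene73076, a tubulin beta-8 chain and 1 of these 2, had 0.14, 0.48 and 0.51 FPKM in the female control and 19.99, 18.1 and 16.9 FPKM in the male control (log2 ratio -4.45, adjusted p = 8.82e-12). In female roots at 6 h it had 1.55, 1.25 and 1.02 FPKM and was called higher than in the control (log2 ratio 1.04). In male roots at 24 h it had 1.76, 1.29 and 0.95 FPKM (log2 ratio -3.38 against the control).

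Unigene26736, an annexin D5, had 12.7, 11.4 and 11.6 FPKM in female and 0.16, 0.17 and 0.26 FPKM in male roots at 24 h (log2 ratio 4.15, adjusted p = 2.67e-09), and 29.6, 24.99 and 25.2 FPKM in female and 10.4, 9.19 and 7.47 FPKM in male control roots. Unigene111087, another annexin D5, had 3.01, 5.91 and 4.83 FPKM in male roots at 12 h, against 0, 0.38 and 0.86 FPKM in the control, and 2.65, 0 and 0 FPKM in female roots at 12 h, against 2.08, 0.7 and 2.76 FPKM in the control. Its female minus male response at 12 h was -3.78 (adjusted p = 0.00526). In female roots at 12 h the log2 ratios of the 2 annexins against the control were -0.56 and -1.23, and neither was called.

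The 2 gene sums whose log2 level was most like that of *SlActin* over the 24 libraries, among 10679 with a mean of at least 10 FPKM, were CL19100 (Pearson r 0.91) and CL485 (r 0.90). CL19100 had 305, 339 and 342 FPKM in the female control, 124, 127 and 129 FPKM at 6 h, 29.4, 29.3 and 26.8 FPKM at 12 h, and 10.8, 10.8 and 9.3 FPKM at 24 h, and 22.6, 21.7 and 24.5 FPKM in the male control. CL485 had 27.8, 34.1 and 29.5 FPKM in the female control, 33.1, 30.8 and 31.2 FPKM at 6 h, 10.7, 10.9 and 9.25 FPKM at 12 h, and 4.05, 3.66 and 5.19 FPKM at 24 h, and 2.4, 3.07 and 3.18 FPKM in the male control. At 6 h CL485 thus had about the level of its female control, unlike *SlActin*. The files do not pair either with a name. Among 146 annotated genes of the study's lists, the most alike were Unigene50175, a polyadenylate-binding protein 2 (r 0.81), CL1281, a cytosolic ascorbate peroxidase (r 0.75), and Unigene52977, a mitochondrial aconitate hydratase (r 0.74). Unigene50175 had 0.07, 0.13 and 0.25 FPKM in female roots at 24 h, against 8.22, 9.46 and 9.24 FPKM in the female control, and 0, 0 and 0.03 FPKM in male roots at 24 h, against 4.7, 3.27 and 3.16 FPKM in the male control. Both Unigene50175 and Unigene52977 are among the 21 genes with their nearest match outside the willow family. The libraries of a group are not independent points, so these r only describe the 24 libraries.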

How the data were processed

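Root RNA of 24 libraries was extracted with TRIzol and sequenced by the authors, who assembled the reads with Trinity and clustered contigs into unigenes. The deposited matrix holds FPKM per contig or unigene, whereas the methods name RPKM, and the aligner and quantifier were not given in the sources used here. Columns were matched to samples by their labels, and all were used. FPKM was used with no further scaling, and contigs of a cluster were summed.

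Genes or rows that reached 1 FPKM in 3 or more libraries (95202 genes, 181249 rows) were tested on log2(FPKM + 0.5) in R 4.3.3 with the trended eBayes of limma 3.58.1 in 1 model of the 8 groups, for 13 comparisons, with Benjamini-Hochberg adjustment within each. Calls needed a log2 ratio of 1 or more in size and an adjusted p of 0.05 or less. Tests were tried on simulated data. The table was read with data.table (version 1.17.8), pandas 2.3.3, and numpy 2.4.6, and figures were drawn with matplotlib 3.10.9 in Python 3.11.15.

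The members, lists, and alternatives were chosen with earlier results of these data known. Named were CL19537 with its contigs, the *NHX* genes, the 2 gene sums and 3 annotated genes most like *SlActin*, and of the cytoskeleton and annexin list Unigene73076 and the 2 called members with the largest ratios. Contigs with a mean of at least 1 FPKM have their values given, others their range. The alternatives were other pseudocounts, filters, scalings, features, and divisors, a replicate block, fits on the compared groups, and each library left out. Columns with the authors' own tests were not used. No sequence of the contigs or of the *SlActin* primers was used here.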

Additional observations from a re-analysis of the deposited data

Results flagged for a closer look

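The *SlActin* sum responded differently to NaCl in the sexes by the test of the difference itself. The female minus male difference of log2 ratios was -3.01 at 12 h (limma, adjusted p = 7.89e-05) and -2.33 at 24 h (adjusted p = 0.00133). Both kept their call with each library left out, with ranges of -3.23 to -2.88 and -2.55 to -2.20. With contig 17 in place of the sum the 12 h difference was -0.66 and was not called.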

How the results depend on the processing

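The replicate block (the replicate number of the labels as a block) changed no call of the *SlActin* sum, with log2 ratios of -1.35, -2.67, and -4.45 at 6, 12, and 24 h in female roots and -0.54, 0.34, and -2.12 in male ones. It moved contigs lower in female 24 h to 27 and no other count of contigs or *NHX* genes. No pairing by number was seen in the levels. The deviations of same-numbered libraries from their group means had correlations of -0.01 to 0.02, and those of differently numbered ones -0.02 to 0.02. This cannot show how the libraries were grown or harvested.

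For the sum, all 13 comparisons kept their call with other pseudocounts, no filter or a filter of 5 FPKM, the library sum as scale, no minimum ratio, and without contigs 2 and 40, as did those left without male 6 h. With the median of ratios, male 12 h was 1.16 (called) and male 24 h -0.93 (not called). In fits on the compared groups, female against male at 6 h was 2.17 and not called. With contig 17 in place of the sum, male 6 h was -1.63 and male 12 h -2.58 (both called), the 12 h difference of responses -0.66 (not called), and female against male 3.33 at 12 h and 1.75 at 24 h (both called). Leaving out each library gave -1.28 to 0.0027 for male 6 h, called without male 6 h replicate 3, and -1.35 to -0.071 for the 6 h difference of responses, called without male 6 h replicate 1. The cause of these changes was not tested.

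Contigs called higher in female 12 h numbered 0 with a pseudocount of 0.1 and 1 with 1. With a pseudocount of 1, 4 were lower in male 6 h and 4 in male 12 h. With the median of ratios 5 were lower in male 12 h, and with either of these settings 0 had a more positive 24 h response in female roots. With a pseudocount of 0.1, 15 were higher in female than male 24 h roots.

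With no divisor in place of *SlActin*, the *NHX* ratios that turned negative were CL7345 at female 6, 12, and 24 h (-0.0080, -1.11, and -1.09), CL9910 at the same times (-1.18, -0.64, and -0.55), CL2217 at female 24 h (-0.33), and at male 24 h CL2217 (-0.39), Unigene43275 (-1.69), and CL9910 (-0.030). With the median of ratios they were CL9910 at female 6, 12, and 24 h (-1.12, -0.50, and -0.032), CL7345 at female 12 and 24 h (-0.97 and -0.59), and Unigene43275 at male 24 h (-1.16), and CL2217 at male 12 h turned positive (0.13). With no divisor, genes called higher numbered 1 and 0 at female 12 and 24 h, 0 at male 6 h, and 0 at male 24 h, and genes called lower 1, 1, and 1 at female 6, 12, and 24 h, 1 at male 12 h, and 2 at male 24 h. With the median of ratios, higher numbered 1 and 1 at female 12 and 24 h, 0 at male 6 h, and 1 at male 12 h, and lower 1 at female 6 h, 0 at male 12 h, and 2 at male 24 h. More positive responses in female roots numbered 1 at 12 h and 2 at 24 h with no divisor, and 0 and 2 with the median of ratios. More negative ones numbered 1 at 6 h with either setting, and 1 at 12 h and 1 at 24 h with the median of ratios. Single contigs as divisor were not run, since 0 had a group mean of at least 1 FPKM in all 8 groups. The unknown depth limits contigs of low FPKM most.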
